A study of Homo sapiens with 6 samples.

Results

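The enzymes that make serine, pass its carbon into the folate cycle and make asparagine and cysteine were followed in SH-SY5Y cells after 1 h of free bilirubin (Bf 140 nM). The set held 10 genes, PHGDH, PSAT1, PSPH, SHMT1, SHMT2, MTHFD1, MTHFD2, ASNS, CTH and CBS. Every probe set annotated with exactly 1 gene symbol from this set was taken, which gave 14 of the 22215 probe sets on the array and covered 10 of 10 genes. A further 2 probe sets, which carry the symbol SHMT1 or PHGDH beside other symbols, were left out by this rule. SH-SY5Y is a human neuroblastoma cell line with a noradrenergic neuronal character, and the arrays were Affymetrix GeneChips. There were 3 arrays of cells given medium with Bf 140 nM, that is the unconjugated bilirubin left free of albumin, and 3 arrays of cells given DMSO 0.6%, the solvent alone, in the same medium otherwise. Each treatment had its own flasks, the sources give the replicates as biological, and the titles number them 1 to 3 in either group. Equal amounts of total RNA from each culture were labelled, so that neither the number of living cells nor the RNA per cell can be read from these arrays.

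Serine is made from the glycolytic intermediate 3-phosphoglycerate by PHGDH, PSAT1 and PSPH in turn, and the SHMT enzymes then move its side-chain carbon onto tetrahydrofolate and leave glycine. The MTHFD enzymes interconvert the folate-bound carbon that purine and thymidylate synthesis use, ASNS makes asparagine from aspartate and glutamine, and CBS and CTH carry sulfur from homocysteine into cysteine. Many of these genes are known targets of ATF4, the transcription factor that is translated when amino acids run short or unfolded proteins gather in the endoplasmic reticulum.

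The stretches of 130 bases before the transcription start are shown for 4 of these genes because 3 kinds of factor known to act on such enzymes read short motifs there. ATF4 and its partners read TGATGNAA, the form of the amino acid response element searched here, NF-Y reads CCAAT, and MYC reads CACGTG. The sequences are from RefSeq promoters on build GRCh38.p14, at chr7:97872409-97872538 on the minus strand for ASNS, chr9:78296995-78297124 on the plus strand for PSAT1, chr2:74198485-74198614 on the plus strand for MTHFD2 and chr14:64388223-64388352 on the plus strand for MTHFD1, and capitals mark a motif.
ASNS: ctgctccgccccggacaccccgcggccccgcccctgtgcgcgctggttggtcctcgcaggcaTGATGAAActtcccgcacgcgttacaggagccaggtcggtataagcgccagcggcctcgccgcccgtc
PSAT1: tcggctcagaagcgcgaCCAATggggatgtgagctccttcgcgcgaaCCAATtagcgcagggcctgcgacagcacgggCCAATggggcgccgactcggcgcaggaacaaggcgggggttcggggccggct
MTHFD2: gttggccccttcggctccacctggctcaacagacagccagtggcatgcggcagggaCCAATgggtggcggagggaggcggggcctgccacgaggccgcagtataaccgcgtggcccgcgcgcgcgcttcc
MTHFD1: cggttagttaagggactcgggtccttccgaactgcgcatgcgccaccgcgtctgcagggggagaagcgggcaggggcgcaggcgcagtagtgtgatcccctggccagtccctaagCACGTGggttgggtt
RefSeq promoters were matched for 8 of the 10 genes, with SHMT2 and PSPH the other two. Both strands were searched over 300 bases, from 250 before to 50 after each listed start, which is more than the 130 bases printed, and the 8 genes have 11 such promoters. TGATGNAA was found in 1 of the 11, of ASNS, 68 bases before the start, against 3.62% of 35116 promoters of that length. CCAAT was found in 8 of the 11, against 34.6% of promoters, with 3 copies in PSAT1 at 113, 83 and 52 bases before the start. The CCAAT copies of MTHFD1 lie outside its printed stretch. CACGTG was found in 1 of the 11, of MTHFD1, 15 bases before the start, against 7.26% of promoters. The motifs do not overlap in these windows, and a match describes letters only.

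The deposited values are normalised expression on a log2 scale, on which 1 unit stands for a 2-fold change of a bright signal. The replicate 3 arrays of both groups stood apart from the others, with correlations of 0.961 to 0.977 with the other 4 arrays, where those 4 correlated at 0.993 to 0.998 with each other. The 3′ minus 5′ signal of the actin control probe sets was 1.49 log2 for Bf 140 nM replicate 3 and 1.90 log2 for DMSO 0.6% replicate 3, and between 0.10 and 0.50 log2 on the rest. Of the noradrenergic neuroblastoma markers, 9 of the 11 measured were above the median signal of all probe sets. The exceptions were TH, the rate-limiting enzyme of catecholamine synthesis, at percentile 14.2 and HAND2 at percentile 49.7. Of 10 markers of other cell types, 2 were above that median, the collagens COL3A1 and COL1A1.

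In DMSO 0.6% the brightest probe set of 9 of the 10 genes was above the median of all probe sets, which was 7.89 log2. Taken singly, 12 of the 14 probe sets were above it, and with a gene's probe sets averaged 8 of the 10 genes were. The share of all genes with their brightest probe set above it was not computed. The mitochondrial folate enzyme MTHFD2 had the brightest probe set, at 12.31 ± 0.43 log2 (SD, n = 3) and percentile 96.9 of the array, followed by ASNS at percentile 95.6, MTHFD1 at 93.0 and SHMT2 at 92.8. PHGDH stood at percentile 89.9, CBS at 84.4, PSAT1 at 84.2 and PSPH at 77.5. Both genes at the low end were CTH, whose brighter probe set was at percentile 52.6, and SHMT1, the cytosolic serine hydroxymethyltransferase, at 6.38 ± 0.11 log2 (SD, n = 3) and percentile 11.3. The probe set left out because it carries MIR6778 beside SHMT1 was at 8.37 ± 0.56 log2 (SD, n = 3) and percentile 58.2, so the low place of SHMT1 rests on the 1 probe set used. The gap between neighbours in this order was smaller than the larger of their SDs for MTHFD2 and ASNS, for MTHFD1 and SHMT2, for CBS and PSAT1, and for PSAT1 and PSPH. These are ranks of the signal of a probe set, which also depends on its probes, and not an order of transcript numbers. Pseudogenes that could share signal are annotated for MTHFD2 (7), ASNS (5), PSAT1 (4), PSPH (1), SHMT1 (1) and MTHFD1 (1), and their part in the signal was not tested.

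**Figure D1:**
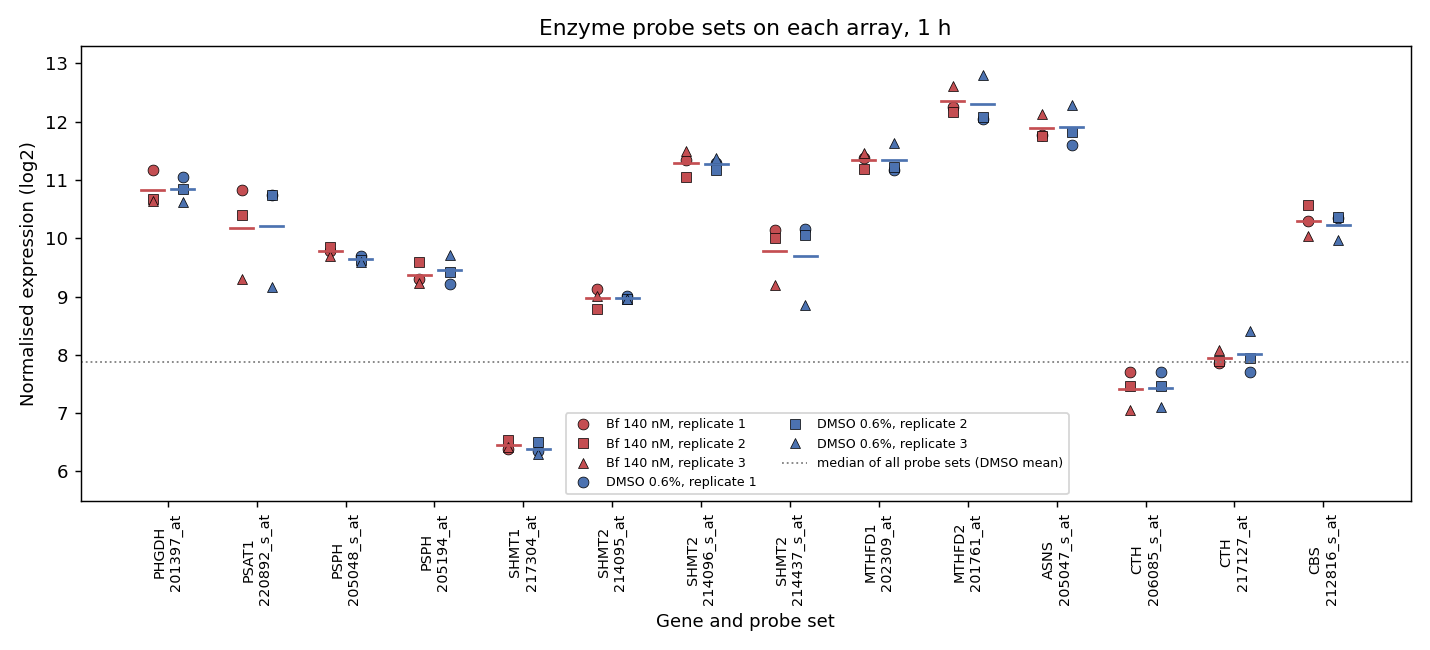
Normalised expression (log2, y axis) of the 14 probe sets (x axis) on each of the 6 arrays. Bf 140 nM and DMSO 0.6% have separate colours, and each replicate number has its own symbol. The groups overlap at every probe set, and replicate 3 of both groups lies lowest for PSAT1 and highest for MTHFD2.

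The question put to the arrays was which of these enzymes differ after 1 h of free bilirubin. By limma with Benjamini-Hochberg adjustment over all 22215 probe sets, 0 of the 14 probe sets passed as higher in Bf 140 nM against DMSO 0.6% (adjusted p under 0.10) and 0 passed as lower, against 0% and 0% of all probe sets. At an unadjusted p under 0.05 the count was 0 of 14 in limma (22 of all 22215). The error of this fit also holds the spread among replicate numbers. With a replicate block in limma the count was 0 of 14 (270 of all 22215). In SAM, the test of the study's methods, 0 passed, and 0 of all probe sets did. The groups did not overlap at 0 of 14 probe sets, against 2.65% of all. The difference was positive in all 3 replicate pairs at 2 probe sets, of PSPH and SHMT1, where 11.8% of all probe sets were, and negative in all 3 at 0, where 5.83% of all were. Differences were positive at 7 probe sets and negative at 7, their median size was 0.04 log2 against 0.05 log2 over all probe sets, and they ran from -0.08 for a CTH probe set to 0.14 for a PSPH probe set.

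None of the 3 enzymes of serine synthesis passed the test. PHGDH, which commits 3-phosphoglycerate to the pathway, had 11.18, 10.67 and 10.64 log2 in Bf 140 nM replicates 1, 2 and 3, against 11.06, 10.85 and 10.63 log2 in DMSO 0.6% (probe set 201397_at). Replicate 1 was the high array in both groups, and the values of the groups interleave. The PHGDH difference was -0.02 log2 (95% confidence interval -0.47 to 0.43), made of 0.12, -0.19 and 0.01 in the 3 pairs.

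PSAT1, the aminotransferase of the middle step, had 10.82, 10.40 and 9.30 log2 in Bf 140 nM replicates 1, 2 and 3, against 10.73, 10.74 and 9.16 log2 in DMSO 0.6% (220892_s_at). Replicate 3 was low in both groups by more than the groups differed in any pair. The PSAT1 difference was -0.04 log2, and its 95% confidence interval of -1.39 to 1.32 was the widest of the set. A replicate block narrowed the PSAT1 interval to -0.26 to 0.18 log2.

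PSPH, the phosphatase of the last step, was measured by a pair of probe sets. The brighter one, 205048_s_at, had 9.78, 9.85 and 9.69 log2 in Bf 140 nM against 9.69, 9.62 and 9.60 log2 in DMSO 0.6%. Bf 140 nM was higher in each pair, by 0.09, 0.23 and 0.09 log2, although the lowest Bf 140 nM value was just below the highest DMSO 0.6% value. This PSPH difference, 0.14 log2 (95% confidence interval -0.07 to 0.35), had the smallest unadjusted p of the set in limma, 0.156, with an adjusted p of 1.00 by Benjamini-Hochberg, and an exact two-sided permutation test gave p = 0.2, where 3 against 3 arrays cannot go below 0.1. The other PSPH probe set, 205194_at, had 9.30, 9.60 and 9.23 log2 in Bf 140 nM against 9.22, 9.41 and 9.72 log2 in DMSO 0.6%. It was higher in Bf 140 nM in replicates 1 and 2 and lower in replicate 3, and differed by -0.07 log2 (95% confidence interval -0.47 to 0.32), so the sign of the PSPH difference depended on the probe set.

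Of the serine hydroxymethyltransferases, SHMT1 acts mainly in the cytosol and SHMT2 in the mitochondrion. SHMT1 (217304_at) had 6.39, 6.54 and 6.43 log2 in Bf 140 nM, against 6.35, 6.50 and 6.29 log2 in DMSO 0.6%. Its difference of 0.07 log2 (95% confidence interval -0.16 to 0.30) was positive in each pair, by 0.04, 0.04 and 0.13 log2, at a signal in the lowest part of the array. The brightest SHMT2 probe set, 214096_s_at, had 11.34, 11.05 and 11.50 log2 in Bf 140 nM against 11.30, 11.17 and 11.38 log2 in DMSO 0.6%, a difference of 0.01 log2 (95% confidence interval -0.32 to 0.35). Replicate 2 was the low array in both groups. The other SHMT2 probe sets differed by -0.0041 log2 (214095_at, interval -0.27 to 0.27) and by 0.09 log2 (214437_s_at, interval -0.91 to 1.09).

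MTHFD1, the cytosolic folate enzyme of several activities, had 11.37, 11.20 and 11.46 log2 in Bf 140 nM, against 11.16, 11.23 and 11.63 log2 in DMSO 0.6% (202309_at). The MTHFD1 pairs went both ways, by 0.21, -0.03 and -0.17 log2, around a difference of 0.0035 log2 (95% confidence interval -0.36 to 0.37). MTHFD2, the mitochondrial enzyme that is high in many dividing and tumour cells, had 12.26, 12.17 and 12.62 log2 in Bf 140 nM, against 12.05, 12.08 and 12.81 log2 in DMSO 0.6% (201761_at). Replicate 3 was the high array in both groups for MTHFD2, and the difference was 0.04 log2 (95% confidence interval -0.54 to 0.61).

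ASNS, which carries the amino acid response motif shown above, had 11.78, 11.75 and 12.13 log2 in Bf 140 nM, against 11.60, 11.82 and 12.28 log2 in DMSO 0.6% (205047_s_at). Replicate 3 was again the high array in both groups. The ASNS difference was -0.01 log2 (95% confidence interval -0.50 to 0.47), made of 0.18, -0.08 and -0.15 in the pairs.

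Of the enzymes of transsulfuration, CBS joins homocysteine with serine and CTH releases cysteine from the product. CBS (212816_s_at) had 10.29, 10.57 and 10.04 log2 in Bf 140 nM, against 10.35, 10.36 and 9.98 log2 in DMSO 0.6%, a difference of 0.07 log2 (95% confidence interval -0.36 to 0.50). Replicate 3 was low in both groups for CBS. The CTH probe sets differed by -0.02 log2 (206085_s_at, interval -0.55 to 0.51) and by -0.08 log2 (217127_at, interval -0.54 to 0.38).

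The 95% confidence intervals set bounds on what 3 arrays per group could have missed. At 12 of the 14 probe sets the interval lay inside a 2-fold change in either direction, as at 95.4% of all probe sets, and at 11 it lay inside 1.5-fold, as at 79.5% of all. The exceptions at 1.5-fold were PSAT1, SHMT2 probe set 214437_s_at and MTHFD2, and the intervals of PSAT1 and of that SHMT2 probe set also reached past 2-fold. In the fit with a replicate block, the interval lay inside 1.5-fold at 14 of 14 probe sets, as at 99.9% of all, with bounds no further out than -0.33 and 0.32 log2. The eBayes step moves the error of each probe set towards that of all probe sets. Standard errors with the block ran only from 0.082 to 0.117 log2, although PSPH 205194_at had pairs of 0.08, 0.19 and -0.48 log2. The block bounds thus do not rest on the spread of each probe set alone.

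**Figure D2:**
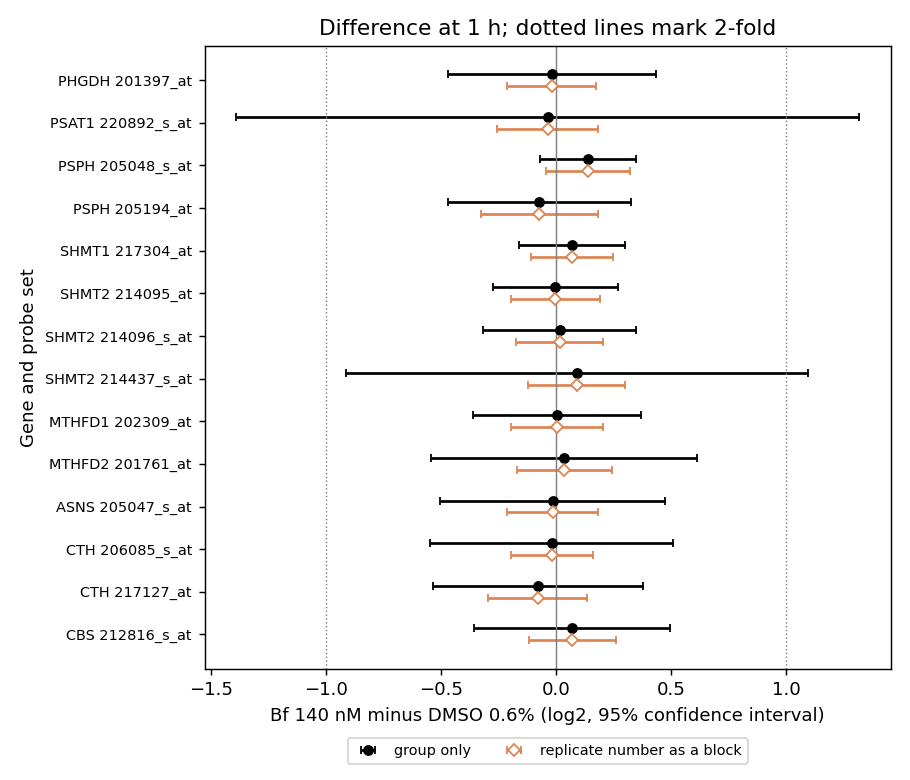
Difference between Bf 140 nM and DMSO 0.6% (log2, x axis) with its 95% confidence interval for the 14 probe sets (y axis), from limma with group only (filled) and with the replicate number as a block (open). Every interval includes 0, and those of PSAT1 and of SHMT2 probe set 214437_s_at reach past the dotted lines at 2-fold unless the block is used.

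The same enzymes were next compared among replicate numbers, whatever the treatment. In a limma F test of the replicate number with Benjamini-Hochberg adjustment, 10 of the 14 probe sets (71.4%) differed at an adjusted p under 0.10, against 44.6% of all probe sets. Among probe sets above the median signal the shares were 9 of 12 (75.0%) and 63.0%, so that bright probe sets passed more often in general. The F test covers all 3 numbers and does not test replicate 3 alone. As a description, replicate 3 lay above the mean of replicates 1 and 2 over both groups at 5 of these 10 and below it at 5, with a median size of 0.35 log2 over the 14 probe sets against 0.19 log2 over all. Of the 14, 12 were above the median signal, and the median size over bright probe sets alone was not computed. PHGDH also differed between replicates 1 and 2 alone, and SHMT2 probe set 214096_s_at was lowest in replicate 2. The sample descriptions carry a further number, 3, 5 or 6 for replicates 1, 2 and 3 in both groups alike, but the sources do not say what either number marks. The 3′ excess of the actin control moved with replicate 3, as given above, and so did that of GAPDH, at 1.03 log2 in Bf 140 nM and 1.15 in DMSO 0.6% against 0.20 to 0.25 log2 on the other arrays. Their part in these differences was not tested.

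In replicate 3, PSAT1 was lower by 1.31 log2 in Bf 140 nM and by 1.58 log2 in DMSO 0.6% than the mean of the other replicates, a size at percentile 98.9 of all probe sets. The same difference was -0.40 and -0.38 log2 for CBS and -0.29 and -0.33 log2 for PHGDH, in Bf 140 nM and DMSO 0.6%. For MTHFD2 replicate 3 was higher by 0.40 log2 in Bf 140 nM and by 0.75 in DMSO 0.6%. So were ASNS by 0.37 and 0.57 log2, and MTHFD1 by 0.18 and 0.43 log2, in Bf 140 nM and DMSO 0.6%. Some of these F test calls were lost with other settings (limma, Benjamini-Hochberg). MTHFD1 did not pass after quantile normalization (0.13 log2, adjusted p 0.41), nor without Bf 140 nM replicate 2 (0.23), DMSO 0.6% replicate 2 (0.17) or DMSO 0.6% replicate 3 (0.50). CBS did not pass with equal array medians (-0.19 log2, limma adjusted p 0.15) or without Bf 140 nM replicate 2 (0.12). PHGDH passed with equal array medians at -0.11 log2. The lowest of the adjusted p values in the limma F test was 2.7e-06 for PSAT1, and the values were 0.0019 for MTHFD2 and 0.0053 for ASNS. PSPH (both probe sets), SHMT1 and SHMT2 probe set 214095_at were the 4 that did not pass. The probe set of MIR6778 and SHMT1 that was left out did pass (limma adjusted p 2.9e-05), with replicate 3 at -0.89 log2 from the others. PSPH 205194_at passed without Bf 140 nM replicate 3 (limma adjusted p 0.0017) or DMSO 0.6% replicate 3 (0.045), and SHMT2 214095_at with equal array medians (0.088).

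The share of F test calls with replicate 3 on the high side depended on the scaling between arrays. Over all probe sets, the median replicate 3 difference was -0.07 log2 in the deposited values, 0.02 log2 after quantile normalization and 0.13 log2 with equal array medians, and 38.9%, 52.4% and 69.7% of the calls had replicate 3 on the high side. Among these enzymes, the calls were 5 on the high side and 5 on the low side in the deposited values, 3 and 5 after quantile normalization, and 6 and 4 with equal medians. The sign turned with the scaling at PSPH probe set 205048_s_at and at SHMT1 and at no other of the 14, neither of which passed in the deposited values. The PSAT1 difference of replicate 3 was -1.44, -1.40 and -1.25 log2 and that of MTHFD2 was 0.58, 0.34 and 0.77 log2 under the 3 scalings.

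**Figure D3:**
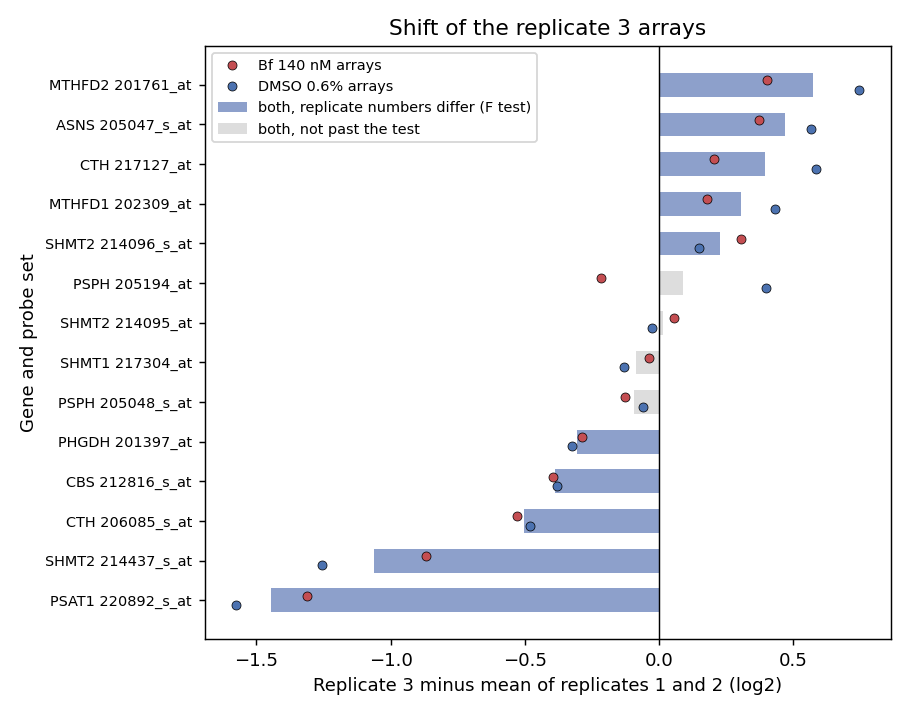
Replicate 3 minus the mean of replicates 1 and 2 (log2, x axis) for the 14 probe sets (y axis), within Bf 140 nM and within DMSO 0.6%. PSAT1 and SHMT2 probe set 214437_s_at lie furthest to the low side in both groups, and MTHFD2 and ASNS are on the high side in both.

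Agreement between probe sets of a gene was read from the same replicate difference, since no treatment difference passed. SHMT2 and CTH each had 1 probe set that passed the F test with replicate 3 on the high side and another with replicate 3 on the low side, which held for 2 of the 3 genes with several probe sets, against 17.8% of the 4310 such genes on the array. Both cases were lost on leaving out single arrays. CTH probe set 217127_at passed under the 3 scalings but not without DMSO 0.6% replicate 3 (limma adjusted p 0.24). SHMT2 probe set 214096_s_at, with means of 11.32, 11.11 and 11.44 log2 in replicates 1, 2 and 3, did not pass after quantile normalization (limma adjusted p 0.62), with trend and robust eBayes (0.12), or without Bf 140 nM replicate 2 (0.67), Bf 140 nM replicate 3 (0.14) or DMSO 0.6% replicate 2 (0.18). SHMT2 probe set 214437_s_at had 10.13, 10.01 and 9.21 log2 in Bf 140 nM and 10.16, 10.06 and 8.86 log2 in DMSO 0.6%, while 214095_at had 9.13, 8.78 and 9.01 log2 in Bf 140 nM and 9.02, 8.96 and 8.96 log2 in DMSO 0.6%. The brightest SHMT2 probe set therefore exceeded 214437_s_at by 1.20, 1.04 and 2.29 log2 in Bf 140 nM and by 1.13, 1.11 and 2.52 log2 in DMSO 0.6%. Its excess over 214095_at stayed between 2.20 and 2.48 log2 on the 6 arrays.

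CTH probe set 206085_s_at had 7.70, 7.46 and 7.05 log2 in Bf 140 nM, against 7.70, 7.47 and 7.10 log2 in DMSO 0.6%. The other CTH probe set, 217127_at, had 7.85, 7.89 and 8.08 log2 in Bf 140 nM, against 7.71, 7.94 and 8.41 log2 in DMSO 0.6%. They moved apart in replicate 3, where 217127_at exceeded 206085_s_at by 1.02 log2 in Bf 140 nM and by 1.31 in DMSO 0.6%, against 0.01 to 0.47 log2 on the other 4 arrays. For PSPH the brighter probe set exceeded the other by 0.48, 0.25 and 0.46 log2 in Bf 140 nM and by 0.47, 0.21 and -0.12 log2 in DMSO 0.6%, so their order turned on 1 array, DMSO 0.6% replicate 3. Where in the transcript each probe set lies was not analysed here.

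**Figure D4:**
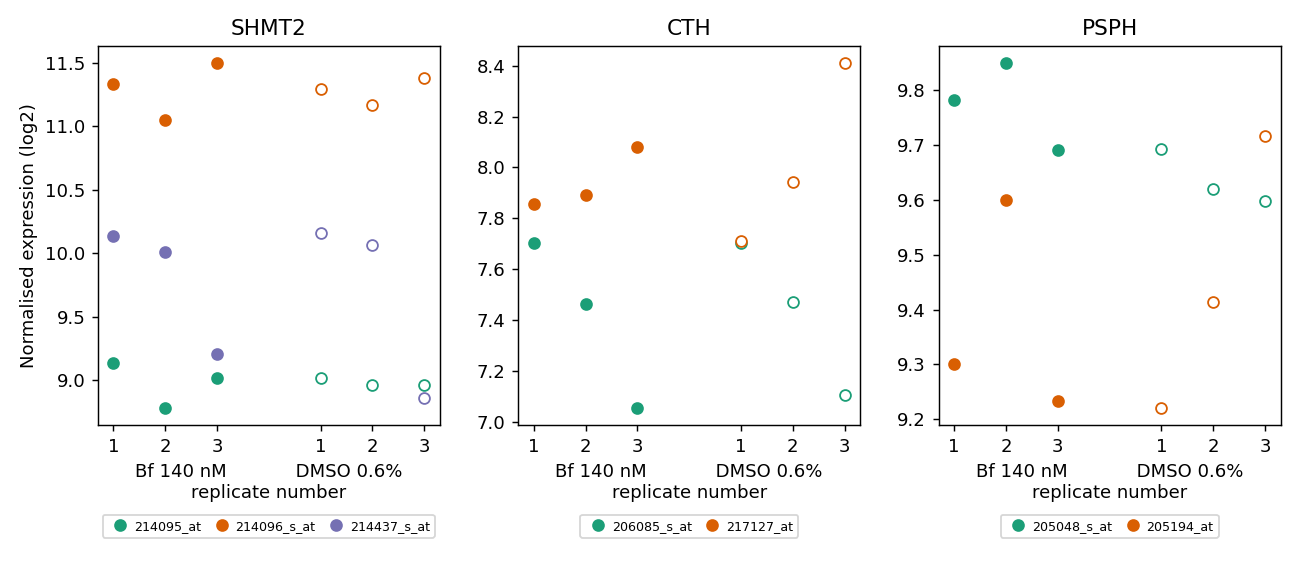
Normalised expression (log2, y axis) of each probe set of SHMT2, CTH and PSPH on the 6 arrays (x axis), with filled points for Bf 140 nM and open points for DMSO 0.6%. The SHMT2 probe set 214437_s_at lies near 214095_at in replicate 3, and the CTH probe sets are furthest apart there.

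The pathways around these enzymes were read from lists of their genes, 1 probe set per gene, and in limma with Benjamini-Hochberg adjustment 0 genes passed in any of them. Of the folate cycle 10 of 15 genes were measured, with a median difference of -0.0018 log2 (-0.09 to 0.08), the range set by SLC25A32, the mitochondrial folate carrier, at -0.09 log2 and SLC19A1, the reduced folate carrier, at 0.08 log2. FTCD, a folate enzyme of histidine breakdown, was at -0.07 log2. All 4 genes of the glycine cleavage system were measured, from -0.23 log2 for GCSH, its lipoyl carrier protein, to 0.01 log2, with DLD at -0.08 and GLDC at -0.04 log2. GCSH was at 11.78 ± 0.08 log2 in Bf 140 nM, against 12.01 ± 0.61 log2 in DMSO 0.6% (SD, n = 3 each), with an interval of the difference of -0.94 to 0.48.

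The methionine cycle and transsulfuration list had 9 of 9 genes measured and a median of 0.02 log2, with the methionine adenosyltransferases MAT2A and MAT1A at 0.08 and 0.04 log2 and MTAP, of methionine salvage, at 0.12 log2. Of the aspartate, glutamate and proline list 9 of 12 were measured, with ASS1, of arginine synthesis, at 0.12 log2, ALDH18A1, of proline synthesis, at -0.15 log2 and PCK2, the mitochondrial phosphoenolpyruvate carboxykinase, at 0.03 log2. All 6 purine synthesis genes were measured, between -0.14 log2 for PFAS and 0.05 log2 for ATIC, with GART at -0.08 log2. Over these pathways the replicate number passed its F test in limma at 9 of 10 folate cycle genes and 2 of 4 of glycine cleavage. It passed at 4 of 9 of the methionine list, 6 of 9 of the aspartate list and 4 of 6 purine genes. The share was 44.6% of all probe sets and 63.0% of those above the median signal. These lists had median percentiles between 74.3 and 89.0.

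Among 10 measured regulators of these pathways 0 passed. Of these regulators 7 differed among replicate numbers, against 44.6% of all probe sets and 63.0% of those above the median signal. DDIT3 (CHOP), a target and partner of ATF4, was at 8.53 ± 0.12 log2 in Bf 140 nM, against 8.39 ± 0.11 log2 in DMSO 0.6% (SD, n = 3 each), a difference of 0.14 log2 (95% confidence interval -0.12 to 0.40). MYC differed by -0.16 log2 (interval -1.06 to 0.75) and ATF3 by -0.09 log2 (interval -0.65 to 0.47). ATF4 itself, named for its role and outside the rule for naming genes, was at 11.76 ± 0.23 log2 in Bf 140 nM, against 11.70 ± 0.23 log2 in DMSO 0.6% (SD, n = 3 each), a difference of 0.05 log2 (95% confidence interval -0.35 to 0.46). ATF4 is known to be governed largely at translation, which a transcript array does not measure. The noradrenergic markers with the smallest p, DDC, GATA2 and CHGA, differed by -0.15, -0.11 and 0.10 log2, and those of other cells, ALB, PTPRC and KRT18, by 0.14, 0.08 and 0.07 log2. Of the noradrenergic markers 10 of 11 differed among replicate numbers and of the other markers 1 of 10, COL3A1, with a replicate 3 difference of -1.04 log2. The same shares of all probe sets apply here. The noradrenergic markers were brighter, at a median percentile of 96.6 against 39.6 for the others, and bright probe sets passed more often in general.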

How the data were processed

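The 6 arrays were from SH-SY5Y cells after 1 h, and groups and replicate numbers came from the sample titles. Cell intensities from GCOS were normalized with VSN in R 2.5.0, and the authors deposited the resulting log2 values. The base of 2 is that of the VSN method, since no source states it, and the sources used here do not give how probes were summarized. The platform annotation gave 1 symbol to 19064 probe sets, several to 1043 and none to 2108, and 62 controls were left out. Fits used limma 3.58.1 in R 4.3.3 on the other 22215 probe sets, with lmFit, eBayes, no filter on signal and Benjamini-Hochberg adjustment, at an adjusted p under 0.10. The code was also run on simulated data. For the group fit the simulated noise was independent between arrays. It lacked the replicate 3 shift that both groups share here, so it does not show how that fit performs on these arrays. SAM, named in the study's methods, was an alternative with all 20 label permutations. The other alternatives were the replicate block, 2 further normalizations, 2 filters on dim probe sets, other eBayes settings and thresholds, averaging a gene's probe sets, and leaving out each array or both replicate 3 arrays.

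All member probe sets were named, and from each further list the 3 genes with the smallest p. The members and lists were chosen with earlier results of these data known. Deviations from the group means correlated at 0.72, 0.78 and 0.88 between arrays of equal number (1, 2 and 3). Such deviations cancel out within a group, so a replicate 3 shift shared by both groups also enters the values for numbers 1 and 2. Correlations of deviations between arrays of unequal number were not computed. With replicates 1 and 2 alone and group in the fit, 2783 of 22215 probe sets (12.5%) differed by number in limma (adjusted p under 0.10). Those differences were thus shared by both groups, and what the numbers mark was not tested. The descriptions hold a further number, 3, 5 or 6, that follows the replicate number in both groups, and whether either stands for a shared day is not in the labels. The methods name no pairing, so the fit without a block was kept as the leading one. Promoter sequences, gene names and pseudogenes were from RefSeq tables of GRCh38.p14, and no build is named for the array.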

Additional observations from a re-analysis of the deposited data

How the results depend on the processing

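The count of these enzymes that differed between Bf 140 nM and DMSO 0.6% was 0 under every alternative run, the replicate block, SAM and leaving out each array included. The count over all probe sets tested was also 0 under each of them, so the 0 is not particular to these enzymes. With the replicate block, 270 of all 22215 probe sets had an unadjusted p under 0.05 in limma, against 22 without it. Of 129 differences of single probe sets under alternatives that can move them, 38 turned their sign, 31 of these on leaving out 1 array, and 0 passed the threshold. With both replicate 3 arrays left out the difference was 0.050 log2 for ASNS, 0.047 for CTH 217127_at, 0.13 for PSPH 205194_at, -0.037 for SHMT2 214096_s_at and -0.040 for SHMT2 214437_s_at. With equal array medians it was -0.016 for MTHFD1 and -0.0044 for SHMT2 214096_s_at. On leaving out 1 array the differences ran from -0.56 to 0.40 log2 for PSAT1, -0.33 to 0.38 for SHMT2 214437_s_at, -0.087 to 0.14 for SHMT2 214096_s_at, -0.083 to 0.093 for SHMT2 214095_at, -0.16 to 0.17 for ASNS, -0.065 to 0.20 for CBS, -0.18 to 0.16 for CTH 206085_s_at, -0.24 to 0.12 for CTH 217127_at, -0.085 to 0.15 for MTHFD1, -0.098 to 0.28 for MTHFD2, -0.19 to 0.086 for PHGDH and -0.19 to 0.060 for PSPH 205194_at. PSPH 205048_s_at and SHMT1 stayed positive under the alternatives run, at 0.10 to 0.18 and 0.02 to 0.13 on leaving out 1 array. The cause of the turned signs was not tested.

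The count that differed among replicate numbers was 7 to 10 of the 14 on leaving out 1 array, against 10 with all arrays. The share of all probe sets then ran from 33.3% to 49.8%, against 44.6% with all arrays. Both were lowest without Bf 140 nM replicate 2 (7 of 14, 33.3% of all) and DMSO 0.6% replicate 2 (8 of 14, 34.3% of all). With both replicate 3 arrays left out it was 1, PHGDH, with 2783 in place of 9897 over all probe sets, in a comparison of replicates 1 and 2 alone. The basal count of genes above the median was 8 to 9 on leaving out 1 array. The intervals rest on 3 arrays per group, and those of the fit without a block also hold the spread among replicate numbers.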
